A study of Mus musculus with 12 samples.

Results

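The 40 genes described here, chosen by their symbols, encode the machinery of mitosis: the mitotic cyclins with their kinase and phosphatases, the polo-like and Aurora kinases, the spindle checkpoint, the kinetochore, the spindle motors, the proteins of cytokinesis, and the proliferation marker Ki-67 with topoisomerase II alpha. All 40 were found among the 22711 genes of the table. RNA had been sequenced in 12 mouse libraries, 3 in each of 4 groups. The groups were whole pancreatic islets after 1 week of doxycycline (Dox islets), whole islets with no doxycycline (No Dox islets), and 2 fractions of islet cells after 1 week of doxycycline, macrophages sorted with an antibody against CD11b and endothelial cells sorted with an antibody against CD31. The donors of every group, the controls included, carried RIP-rtTA and TetO-VEGF-A: the insulin promoter drives the rtTA activator in beta cells, and doxycycline lets rtTA switch on the VEGF-A transgene there. The fractions were taken with doxycycline only, so the design holds no untreated macrophages or endothelial cells, and CD11b is also carried by neutrophils and some lymphocytes. The labels do not state age or sex, nor that replicates were taken from different mice, so p-values measure the spread between these libraries, which may be technical.

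A cell that commits to division makes most mitotic proteins late in its cycle and destroys many of them as it leaves mitosis. Most of their messenger RNAs are abundant mainly where cells are cycling. In G2 phase the genes are switched on together by a complex of MuvB proteins with B-Myb and Foxm1, which binds the cell cycle homology region (CHR) near their start sites, while NF-Y binds CCAAT boxes just upstream. In resting cells the DREAM complex, which also contains MuvB, holds the same genes down. Adult beta cells divide rarely, whereas VEGF-A is a mitogen of endothelial cells.

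Since most of these genes moved together in the islets, the promoters of 6 of them are shown with the motifs through which they are known to be co-regulated. Promoters, 250 bases before to 50 after the start site, were found in RefSeq (build GRCm38.p6) for 33 of the 40 genes. The motif TTTGAA and its variant with a central CG, TTCGAA, are the usual letters of the CHR. These and the CCAAT box were searched on both strands, and they can overlap. Cdk1, Ccnb2, Bub1 and Cenpf hold both kinds of motif. Nuf2, also higher in Dox islets, holds neither, and Spc25, the gene that went the other way in islets, holds both. Capitals mark these motifs on either strand, so that TTCAAA is the first motif read from the other strand and ATTGG the CCAAT box read likewise. Each is given 5′ to 3′ on the strand of its gene, which is the minus strand for all 6, at chr10:69352863-69353162 for Cdk1, chr9:70421505-70421804 for Ccnb2, chr2:127831810-127832109 for Bub1, chr1:189688037-189688336 for Cenpf, chr1:169531415-169531714 for Nuf2 and chr2:69206164-69206463 for Spc25.
Cdk1 promoter: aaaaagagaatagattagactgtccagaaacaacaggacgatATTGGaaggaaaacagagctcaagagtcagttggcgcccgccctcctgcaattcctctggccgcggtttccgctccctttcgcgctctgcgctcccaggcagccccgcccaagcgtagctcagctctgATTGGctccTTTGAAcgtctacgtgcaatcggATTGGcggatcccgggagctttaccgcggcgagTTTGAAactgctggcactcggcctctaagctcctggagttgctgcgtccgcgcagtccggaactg
Ccnb2 promoter: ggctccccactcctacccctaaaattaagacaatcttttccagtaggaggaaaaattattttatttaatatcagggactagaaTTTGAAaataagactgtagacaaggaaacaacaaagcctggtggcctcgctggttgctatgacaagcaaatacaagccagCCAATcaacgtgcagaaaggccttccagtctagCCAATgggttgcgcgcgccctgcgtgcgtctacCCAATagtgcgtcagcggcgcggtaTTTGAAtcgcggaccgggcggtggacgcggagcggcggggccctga
Bub1 promoter: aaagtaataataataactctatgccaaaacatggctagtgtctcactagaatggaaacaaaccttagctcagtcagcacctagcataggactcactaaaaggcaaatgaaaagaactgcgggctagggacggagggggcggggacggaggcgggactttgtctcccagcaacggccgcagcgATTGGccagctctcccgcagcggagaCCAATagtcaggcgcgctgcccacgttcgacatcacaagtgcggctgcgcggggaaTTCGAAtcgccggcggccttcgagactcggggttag
Cenpf promoter: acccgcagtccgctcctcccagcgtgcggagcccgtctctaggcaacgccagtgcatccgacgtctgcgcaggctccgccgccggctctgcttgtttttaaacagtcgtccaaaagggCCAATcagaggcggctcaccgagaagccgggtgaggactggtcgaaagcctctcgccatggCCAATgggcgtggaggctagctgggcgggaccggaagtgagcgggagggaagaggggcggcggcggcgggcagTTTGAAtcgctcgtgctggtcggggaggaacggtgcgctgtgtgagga
Nuf2 promoter: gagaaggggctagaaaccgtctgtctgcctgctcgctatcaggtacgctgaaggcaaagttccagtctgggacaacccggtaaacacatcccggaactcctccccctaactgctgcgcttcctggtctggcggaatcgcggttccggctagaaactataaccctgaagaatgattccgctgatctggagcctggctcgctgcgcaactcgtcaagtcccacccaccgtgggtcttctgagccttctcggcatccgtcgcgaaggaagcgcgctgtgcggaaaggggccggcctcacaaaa
Spc25 promoter: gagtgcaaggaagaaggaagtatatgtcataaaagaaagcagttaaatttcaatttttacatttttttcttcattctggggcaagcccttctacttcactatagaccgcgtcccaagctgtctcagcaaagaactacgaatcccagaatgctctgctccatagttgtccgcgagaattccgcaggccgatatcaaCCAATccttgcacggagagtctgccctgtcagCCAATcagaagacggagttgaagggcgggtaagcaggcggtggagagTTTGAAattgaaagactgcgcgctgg

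TTTGAA or TTCGAA stood in 25 of the 33 promoters (75.8%), against 21.7% of the promoters of all 27025 RefSeq genes with one. CCAAT stood in 24 of 33 (72.7%), against 41.1% of all promoters. Both kinds stood in 22 of 33 (66.7%), against 8.61% of all promoters. The CHR letters lay close to the start: in 24 of 33 promoters (72.7%) they fell within 100 bases before to 50 after it, against 9.87% of all promoters. The 6 promoters with neither motif were those of Mad2l1, Plk4, Birc5, Nuf2, Nusap1 and Melk, which says only that these letters are not in this window. These are matches of letters, not measured binding, and the same pattern is known for mitotic genes in general.

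Values are in the normalized signal that the authors deposited, which is linear, has a floor of 1 and is not divided by gene length. Summed signal ran from 17626506 to 25218786 per library, and read depth is unknown. Tests were made with limma on log2(signal + 1), adjusted over all genes tested, and a gene was tested where at least 3 of 6 libraries reached a signal of 183. A call means an adjusted p under 0.05. The fractions carried their own markers: the 12 endothelial markers summed to 1.23 to 1.31% of signal in CD31-sorted libraries and the 15 macrophage markers to 1.74 to 1.92% in CD11b-sorted ones. Markers of other cells differed between the fractions, mostly at low levels. Acinar markers were uneven between replicates, at 0.00664 to 2.03% of signal in CD11b-sorted libraries and 0.00135 to 0.582% in CD31-sorted ones. In macrophage replicate 2 they exceeded the macrophage markers, at 1.80%, and 0 of 10 tested were called between the fractions. The 1 ductal marker tested, Krt7, was called higher in CD11b-sorted cells. In CD11b-sorted against CD31-sorted cells, 2 of 3 tested neutrophil markers (Csf3r and S100a8), 2 of 2 tested markers of T, NK and B cells (Cd4 and Cd79b) and 7 of 7 tested endocrine markers were called higher, and 3 of 9 tested mural and fibroblast markers lower. Neutrophil markers summed to 0.0151 to 0.0195% of signal in the CD11b fraction and endocrine markers to 0.0238 to 0.0727%. The part of these cells in the differences between fractions was not tested. Among the islet libraries, Dox replicate 1 and No Dox replicate 2 stood apart in how their signal followed GC content, with a Spearman correlation of 0.61 and 0.66 across genes between a library's deviation from its group and exon GC, against -0.48 to -0.32 in the other 4 islet libraries. The 40 genes have a median exon GC of 46.9%, against 49.4% over genes above the signal limit, and the part of GC in the islet differences was tested only by leaving that pair of libraries out.

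In islets, doxycycline went with a higher level of nearly the whole set. Of the 40 genes, 36 were higher in all 3 Dox libraries than in any No Dox library, 1 (Spc25) was lower in all 3, and 3 (Bub3, Aurka and Cenpe) overlapped; over all genes of the table, 10.7% were higher without overlap. The fold of the group means had a median of 5.87 over the 39 genes with a mean above the floor in No Dox islets. It exceeded 4 for 30 of them. It reached 25.1 for Cdc25c, which was too low to test, at 5.27, 1 (the floor) and 5.99 in No Dox islets. Of the 28 genes that could be tested, 19 were called higher and 0 lower, where 6.22% of all genes tested were called higher and 2.26% lower. Their median log2 difference was 2.68, against 0.11 over all genes tested. At an unadjusted p under 0.05 limma passed 27 of the 28, with Spc25 among them as lower. Over all genes, 2435 of the 10214 tested passed in either direction. Of the 28, 10 reached the signal limit in Dox islets alone, so a difference was built into their selection and their tests carry less weight. These were Ccnb1, Cdk1, Bub1, Bub1b, Mad2l1, Ttk, Incenp, Nuf2, Ect2 and Foxm1, of which 8 were called. The other 18 reached it in at least 1 No Dox library too, and 11 of them were called higher. For some of these, such as Ccnb2, Kif4 and Tpx2, that was No Dox replicate 3 only, so their selection may favour a difference too.

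**Figure D1:**
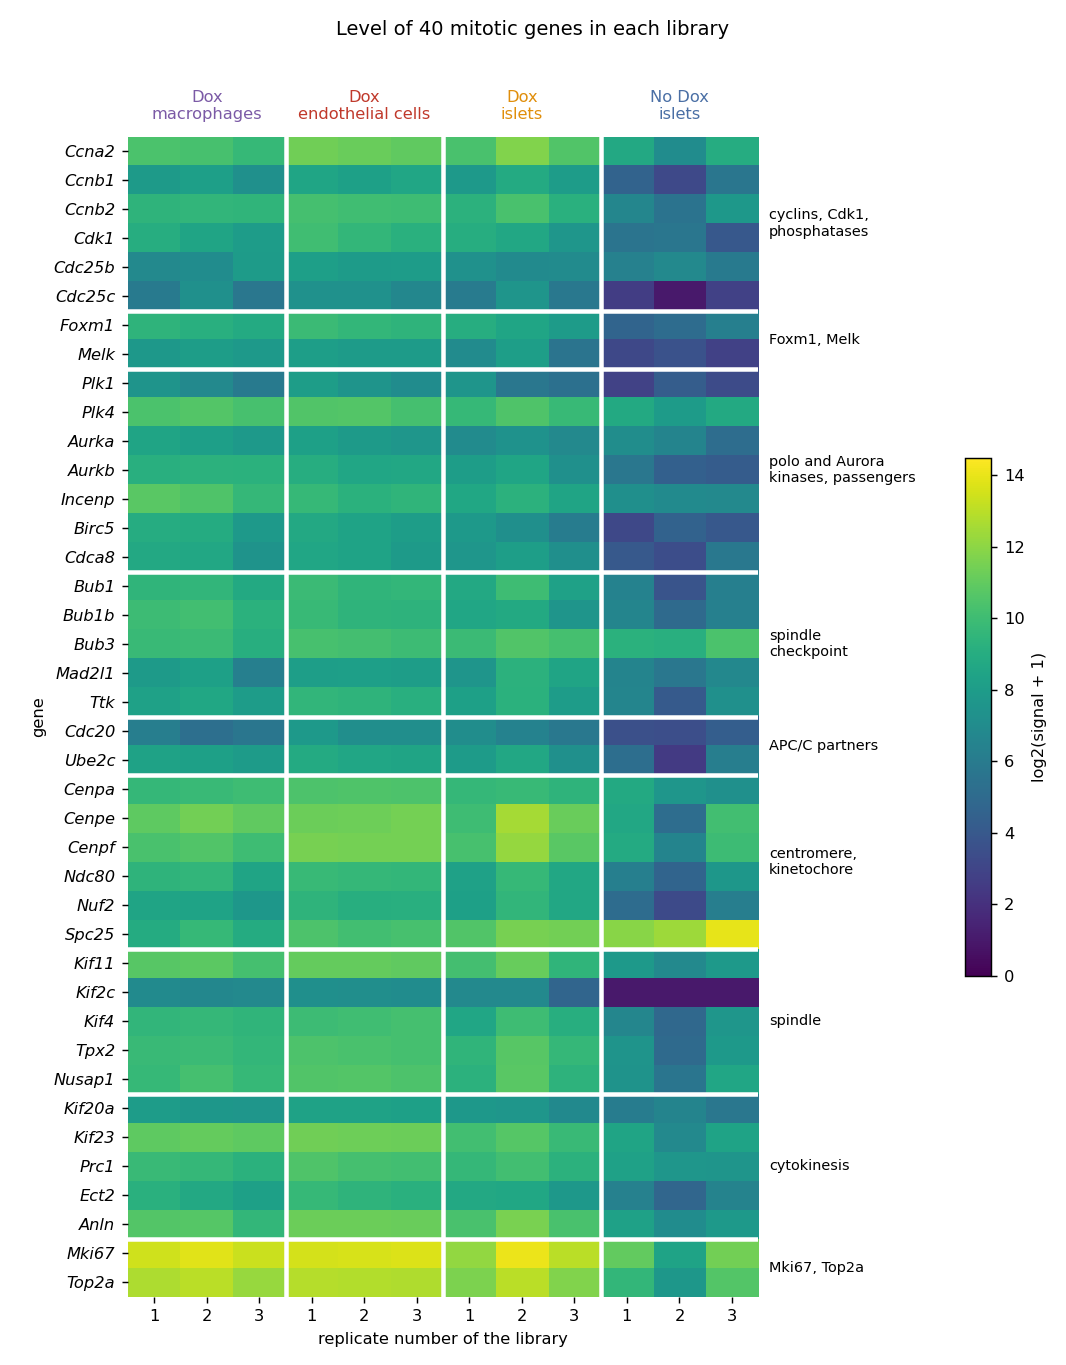
Level of each of the 40 genes (rows, grouped by role) in each of the 12 libraries (columns, with replicate numbers), as log2(signal + 1) in colour. Dark cells are low: No Dox islets have the lowest mean for 38 of the 40 genes, Spc25 is brightest there, and No Dox replicate 2 is the lowest of its group for 26 genes.

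The engine of mitotic entry is cyclin-dependent kinase 1 bound to cyclin B or cyclin A. Cdk1 was measured at 521, 416 and 198 in Dox islets, against 46.7, 49.99 and 15.0 in No Dox islets, a log2 difference of 3.38 ± 0.65 (SE; n = 3 each, adjusted p = 0.0188). Ccnb1, cyclin B1, stood at 217, 469 and 260 in Dox islets, against 23.9, 8.27 and 50.9 in No Dox islets (log2 difference 3.71 ± 0.73, adjusted p = 0.0206). The lowest Dox library lay above the highest No Dox library for both genes, and both were tested through their Dox libraries alone. Ccnb2, cyclin B2, stood at 649, 1312 and 579 in Dox islets, against 99.3, 44.8 and 215 in No Dox islets (log2 difference 2.99 ± 0.60, adjusted p = 0.0213). Ccna2, cyclin A2, stood at 1314, 3404 and 1528 in Dox islets, against 432, 132 and 499.7 in No Dox islets (log2 difference 2.63 ± 0.56, adjusted p = 0.0256). Dox replicate 2 was the highest library for all 3 cyclins, and Dox replicate 1 for Cdk1. Cdc25b and Cdc25c, phosphatases that remove the inhibitory phosphates from Cdk1, were too low to test. Cdc25c stood at 64.4, 189 and 53.8 in Dox islets, against 5.27, 1 and 5.99 in No Dox islets, whereas Cdc25b averaged 137 ± 22.9 in Dox islets and 84.2 ± 24.9 in No Dox islets (SD, n = 3 each).

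Foxm1, the transcription factor that drives many of these genes, stood at 522, 363 and 244 in Dox islets, against 24.2, 34.6 and 74.8 in No Dox islets (log2 difference 3.14 ± 0.58, adjusted p = 0.0168). The lowest Dox library lay above the highest No Dox library, and no No Dox library reached the signal limit. Melk, a kinase whose expression marks dividing cells, was not tested, at 125, 281 and 46.1 in Dox islets and 7.87, 11.4 and 5.99 in No Dox islets.

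Of the polo-like and Aurora kinases and the chromosomal passenger complex, 2 of 7 genes could be tested and both were called. Plk4, the kinase that licenses centriole duplication, averaged 1055 ± 348 in Dox islets and 380 ± 119 in No Dox islets, the smallest log2 difference among the called genes at 1.48 ± 0.39 (adjusted p = 0.0468). Incenp, the scaffold of the passenger complex, averaged 462 ± 146 in Dox islets and 127 ± 17.1 in No Dox islets (log2 difference 1.82 ± 0.40, adjusted p = 0.0290), and it reached the signal limit in Dox islets alone. Its partners were low but separated: Aurkb, the kinase of the complex, stood at 272, 374.5 and 155 in Dox islets and 53.3, 20.7 and 17.96 in No Dox islets, and Birc5 (survivin) at 221, 147 and 67.6 in Dox islets and 7.88, 22.7 and 15.0 in No Dox islets. Cdca8 (borealin), the third partner, stood at 192, 281.5 and 149 in Dox islets and 15.8, 9.95 and 55.4 in No Dox islets. No library of one group reached into the other for these 3 partners. Plk1, which acts from mitotic entry to cytokinesis, stood at 188.5, 53.2 and 40.5 in Dox islets and 6.28, 18.05 and 8.86 in No Dox islets. Aurka, the spindle pole kinase, overlapped, at 128, 167 and 114 in Dox islets against 134.9, 92.6 and 35.95 in No Dox islets.

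In the spindle checkpoint, which holds anaphase until every chromosome is attached, 2 of 5 genes were called, both tested through their Dox libraries alone. The kinase Bub1 stood at 437, 1026 and 318 in Dox islets, against 83.6, 12.7 and 74.6 in No Dox islets (log2 difference 3.56 ± 0.77, adjusted p = 0.0268). Bub1b, which encodes BubR1 of the checkpoint complex, averaged 339 ± 133 in Dox islets and 68.0 ± 33.1 in No Dox islets (log2 difference 2.36 ± 0.59, adjusted p = 0.0407). Mad2l1 (Mad2) and Ttk (Mps1) were separated between groups but not called, at log2 differences of 2.10 (adjusted p = 0.0507) and 2.53 (adjusted p = 0.0847). Bub3 stood apart from its partners: it was measured at 932, 1515 and 1211 in Dox islets and 604, 561 and 1334 in No Dox islets, and its log2 difference was 0.64 ± 0.40 (adjusted p = 0.394). The groups overlapped, and its No Dox level per kilobase of exon, 406, was the highest of the 40 genes after Spc25. Cdc20, the activator of the anaphase-promoting complex, and Ube2c, its ubiquitin-conjugating enzyme, were not tested, at means of 92.3 and 270.5 in Dox islets and 13.4 and 37.7 in No Dox islets.

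At the kinetochore, Nuf2, an arm of the Ndc80 complex that grips microtubules, had a log2 difference of 3.97 ± 0.77 (adjusted p = 0.0198), and it too reached the signal limit in Dox islets alone. It stood at 305, 745 and 409 in Dox islets, against 34.1, 8.41 and 72.9 in No Dox islets. Cenpa, the histone variant that marks the centromere, averaged 795 ± 95.2 in Dox islets and 265.5 ± 162 in No Dox islets (log2 difference 1.74 ± 0.44, adjusted p = 0.0444). The remaining kinetochore genes were not called. Ndc80 stood at 308, 855 and 417 in Dox islets against 76.7, 24.3 and 203 in No Dox islets (adjusted p = 0.0569), and Cenpf at 1265, 4784 and 1777 in Dox islets against 465, 92.4 and 999.9 in No Dox islets (adjusted p = 0.0751). Cenpe, a kinesin that moves chromosomes to the spindle equator, stood at 1033, 5875 and 2313 in Dox islets against 406.5, 35.2 and 1120 in No Dox islets (log2 difference 3.24 ± 1.11, adjusted p = 0.107). No Dox replicate 3 lay above Dox replicate 1, so the groups overlapped.

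Among spindle proteins, Tpx2, which activates Aurora A and seeds microtubules, stood at 717, 1730 and 799 in Dox islets against 177, 31.6 and 218 in No Dox islets (log2 difference 3.20 ± 0.71, adjusted p = 0.0290). Kif11 (Eg5), the motor that pushes the spindle poles apart, stood at 1139, 2210 and 722 in Dox islets against 227, 114 and 233 in No Dox islets (log2 difference 2.74 ± 0.49, adjusted p = 0.0149). Kif4, a chromosome-bound motor, was also called (log2 difference 2.81, adjusted p = 0.0396), and the microtubule bundler Nusap1 was not (2.61, adjusted p = 0.0572). Kif2c, a kinesin that depolymerises microtubules, was listed at the floor in all 3 No Dox libraries and at 114, 111 and 25.8 in Dox islets. Of the cytokinesis genes, 4 of 4 tested were called: Anln (anillin), the scaffold of the contractile ring, at a log2 difference of 3.03 ± 0.46 (adjusted p = 0.0112), the smallest adjusted p of the set, then Ect2, which activates RhoA at the cleavage site and reached the signal limit in Dox islets alone (2.49, adjusted p = 0.0358), Kif23 (2.30, adjusted p = 0.0256) and Prc1 (1.87, adjusted p = 0.0218), both of the central spindle. Anln stood at 1316, 3094 and 1308 in Dox islets and 315, 130 and 233 in No Dox islets. Kif20a, a central spindle motor, was not tested, at 208, 197.5 and 117 in Dox islets and 65.9, 91.7 and 52.35 in No Dox islets. It overlaps the anaphase-promoting complex gene Cdc23 on the opposite strand over 32.3% of its exon bases, so its values are uncertain if reads were counted without strand, on which the labels are silent. The same limit holds for Kif4, which shares 15.1% of its exon bases with Pdzd11 (means of 488 in Dox and 461 in No Dox islets). It also holds for Ccna2, which shares 14.6% with Exosc9 (402 and 416). Ube2c shares 22.8% with Tnnc2, which was at the floor in islets.

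Ki-67 and topoisomerase II alpha were higher in Dox islets too, with a call for the topoisomerase. Mki67, which encodes the chromosome surface protein Ki-67, stood at 4487, 16946 and 8045 in Dox islets against 2110, 341 and 2755 in No Dox islets, a log2 difference of 2.75 ± 0.76 that was not called (adjusted p = 0.0567). Top2a, which untangles sister chromatids, stood at 3140, 8291 and 3408 in Dox islets against 773, 201 and 1595 in No Dox islets (log2 difference 2.82 ± 0.69, adjusted p = 0.0384). All 3 Dox libraries lay above all 3 No Dox libraries for both genes.

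**Figure D2:**
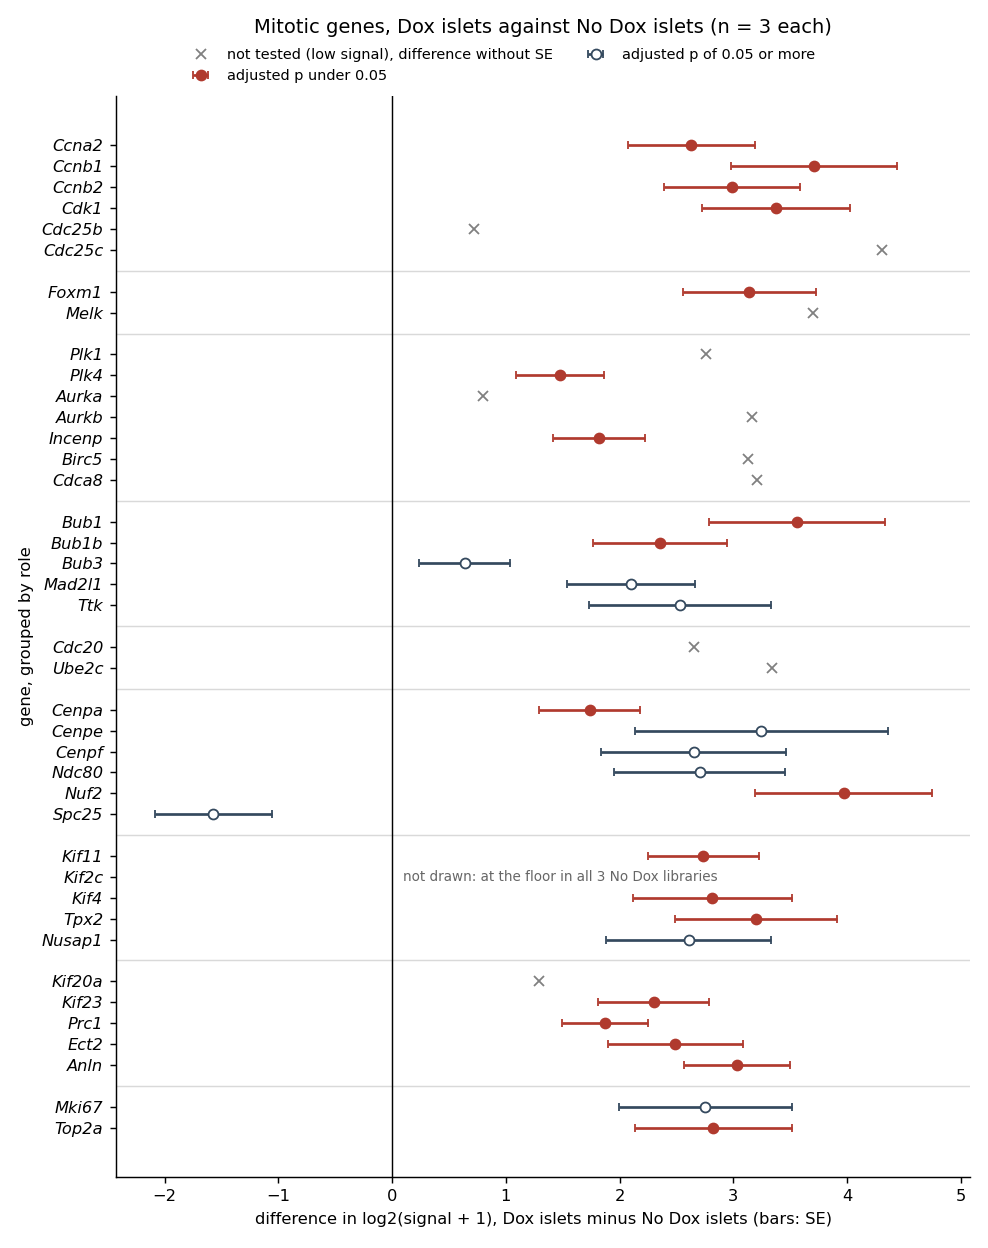
Difference in log2(signal + 1), Dox islets minus No Dox islets, for the 40 genes grouped by role, with the standard error of the limma fit (3 libraries per group). Filled points are the 19 genes with an adjusted p under 0.05, open points the 9 others tested, and crosses the untested genes, with Kif2c not drawn; the genes drawn lie right of zero except Spc25 at -1.57.

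The islet calls rested on few libraries. Dox replicate 2 was the highest of its group for 31 of the 40 genes, and No Dox replicate 2 the lowest of its group for 26. Without Dox replicate 2 limma called 0 of the 28 genes (26 at an unadjusted p under 0.05) and 5 genes of the whole table. All 6 libraries gave 19 of the 28 and 866 of all genes tested. Without Dox replicate 3 limma called 3 of the 28 and 159 of all genes, and without No Dox replicate 1 it called 9 and 577. More calls were kept without Dox replicate 1 (18 and 653), No Dox replicate 2 (15 and 736) or No Dox replicate 3 (21 and 656). Without the pair that stood apart in GC (Dox replicate 1 and No Dox replicate 2) it called 5 and 371. On those 2 against 2 libraries the median log2 difference of the 28 was 2.26. An unadjusted p under 0.05 was found for 26 of them and for 2313 of all 10214 genes tested. The choice of signal limit also counted. With no limit 0 of 40 were called (34 at an unadjusted p under 0.05, as were 3085 of all 22711 genes). With a limit at 15.6, chosen after seeing the data, 24 of 40 were called higher, as were 625 of all 14436 genes tested. With that lower limit 7 of the 12 genes left untested were called, namely Aurkb, Birc5, Cdca8, Cdc20, Cdc25c, Kif2c and Melk. No gene that was called turned in sign under any alternative run.

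As a share of library signal, the 40 genes held 0.142, 0.274 and 0.138% in Dox islets, against 0.0580, 0.0486 and 0.122% in No Dox islets. The groups did not overlap, with No Dox replicate 3 close below the lowest Dox library. Spc25 alone made up 4.25 to 8.23% of the sum in Dox islets and 30.6 to 61.6% in No Dox islets. Without Spc25 the share averaged 0.174 ± 0.0759% in Dox islets and 0.0375 ± 0.0177% in No Dox islets (SD, n = 3 each). In macrophages all 40 genes held 0.197 ± 0.0329%, and in endothelial cells 0.245 ± 0.0147%. Dox islet replicates 1 and 3 held less than any of the 6 sorted libraries, and Dox replicate 2 held more than all of them.

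**Figure D3:**
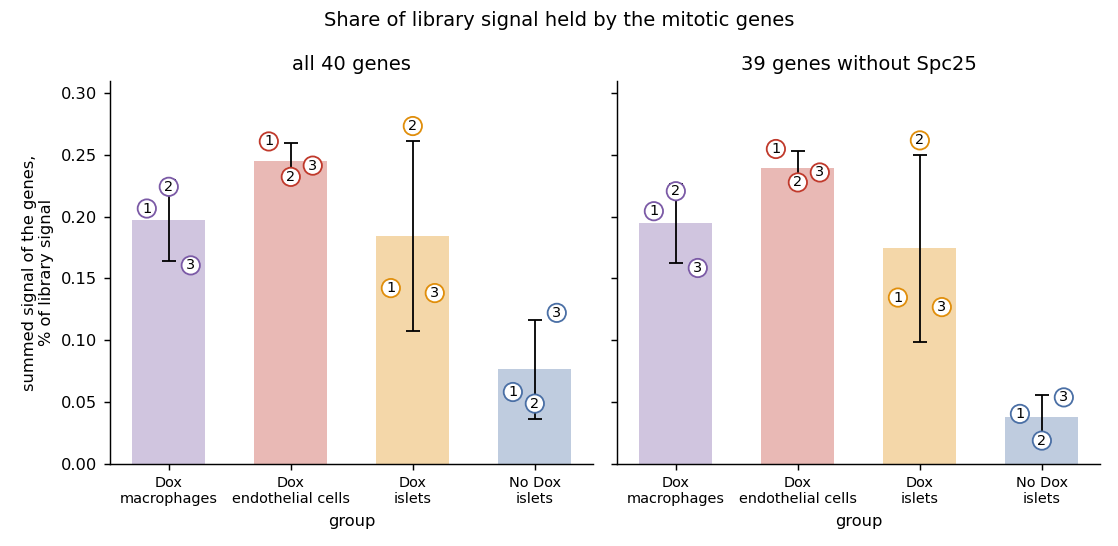
Summed signal of the genes as a percent of library signal in macrophages, endothelial cells, Dox islets and No Dox islets, for all 40 genes (left) and for 39 without Spc25 (right). Bars are means, error bars SD over 3 libraries and numbered circles the replicates; without Spc25, No Dox islets average 0.0375%.

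Markers of several cell types moved with this difference. The 12 endothelial markers summed to 0.480 to 0.582% of signal in Dox islets and 0.189 to 0.226% in No Dox islets, with 7 of 11 tested called higher. The 15 macrophage markers summed to 0.0752 to 0.135% in Dox islets and 0.0255 to 0.0520% in No Dox islets, with 6 of 11 called higher, and the 13 markers of mural cells and fibroblasts to 1.27 to 2.12% in Dox islets and 0.361 to 0.691% in No Dox islets, with 7 of 13 called higher. The 14 endocrine markers summed to 1.59 to 1.72% in Dox islets and 2.98 to 5.12% in No Dox islets, with 6 of 14 called lower. Acinar markers summed to 0.477 to 1.52% in Dox islets and 0.202 to 0.682% in No Dox islets, with 0 of 10 tested called by limma and 5 at an unadjusted p under 0.05. None of the markers of these 5 lists was at the floor throughout a group of islets. In bulk RNA, more cells of a type and more RNA per cell cannot be told apart, and the part of cell composition in the mitotic difference was not tested.

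Lists of related genes held fewer calls in islets, read here against the 6.22% of all genes tested that were called higher. Of 63 other mitotic genes in the table, 35 were tested in islets, 11 (31.4%) were called higher and 0 lower, with a median log2 difference of 1.69, but 9 of the 11 reached the signal limit in Dox islets alone. Those with the largest differences were Sgol2 (3.32), a guardian of centromeric cohesion, Dlgap5 (3.23), a spindle assembly factor, the motor Kif15 (2.89) and Cep55 (2.82), which acts at the midbody, all among those 9. Sgol2 averaged 465 ± 277 in Dox islets and 44.0 ± 19.0 in No Dox islets. None of the 11 tested subunits of the anaphase-promoting complex, which are made throughout the cell cycle, was called by limma, 0 of them even at an unadjusted p under 0.05, and their median log2 difference was 0.10. Anapc7, for example, was at 0.76 (adjusted p = 0.302). Of 18 tested E2F and MuvB regulators, E2f8 (3.04 ± 0.71, adjusted p = 0.0327) and E2f7 (1.86 ± 0.40, adjusted p = 0.0269), repressor E2Fs that are themselves made in cycling cells, were called higher, both through Dox libraries alone. Of 16 tested DNA replication genes only the helicase subunit Mcm6 was called (1.36 ± 0.34, adjusted p = 0.0411), with 6 at an unadjusted p under 0.05. The share of 1 in 16 (6.25%) is that found over all genes. Their median log2 difference was nonetheless 0.82, against 0.11 over all genes tested, with 6 higher without overlap and 0 lower.

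Between the sorted fractions, the mitotic genes that were called were nearly all lower in macrophages than in endothelial cells. Of the 40 genes, 36 were tested, 14 were called lower and 1 higher in macrophages, where 36.0% of all genes tested were called lower and 29.4% higher. The share called lower among the mitotic genes was thus near that of all genes, and their median log2 difference was -0.53, against -0.14 over all genes tested. Without regard to the test, 22 of the 40 were lower in all macrophage libraries than in any endothelial library, against 23.3% of all genes of the table, many of which are at or near the floor, and 1 (Aurkb) was higher.

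The genes called lower belonged mainly to the kinetochore, cyclin, spindle and cytokinesis groups. Cenpf stood at 1269, 1484 and 1041 in macrophages against 2962, 2881 and 2787 in endothelial cells, a log2 difference of -1.20 ± 0.14 (n = 3 each, adjusted p = 0.00012). Cdk1 stood at 515, 352 and 260 in macrophages against 1064, 785 and 588 in endothelial cells (log2 difference -1.12 ± 0.31, adjusted p = 0.0126). Ccna2 stood at 1330, 1258 and 828 in macrophages against 2612, 2307 and 2026 in endothelial cells (log2 difference -1.05 ± 0.20, adjusted p = 0.00185). The groups did not overlap for any of these 3 genes. Ttk (-1.04), Nuf2 (-1.03) and Anln (-0.91) were called lower by similar amounts, and Prc1, Cenpa, Nusap1, Ccnb2, Tpx2, Kif4 and Kif23 had log2 differences of -0.71 to -0.35. Spc25 (-1.10) completes the 14. Cdc20 was too low to test, at 73.4, 38.3 and 50.7 in macrophages against 227.5, 141 and 140 in endothelial cells.

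The one gene called higher belonged to the chromosomal passenger complex. Incenp stood at 1749, 1467 and 807 in macrophages against 847, 607 and 709 in endothelial cells and was the only gene called higher (log2 difference 0.83 ± 0.29, adjusted p = 0.0324), though macrophage replicate 3 lay within the endothelial range. That call was lost without macrophage replicate 1 or 2 and without endothelial replicate 2 or 3. Aurkb, which Incenp activates, stood at 569, 625 and 610 in macrophages against 529.5, 380 and 410 in endothelial cells, with no overlap but no call (0.46 ± 0.19, adjusted p = 0.0567). Birc5 and Cdca8 (borealin), the other 2 subunits, differed by 0.13 and 0.01 and were not called (adjusted p = 0.773 and 0.983). Of the 6 genes of this group that were tested, limma called 0 lower.

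For Ki-67 and topoisomerase no difference between the fractions was called. Mki67 stood at 11338, 14809 and 10342 in macrophages against 12076, 12489 and 13478 in endothelial cells (log2 difference -0.08 ± 0.14, adjusted p = 0.652). Top2a stood at 6737, 8110 and 4954 in macrophages against 7436, 7227 and 7098 in endothelial cells (-0.16 ± 0.17, adjusted p = 0.414). The groups overlapped for both, with a wider spread in macrophages. Same-numbered macrophage and endothelial libraries deviated together, and with the replicate number as a block 18 genes of the set were called lower and 1 higher. The 4 added were Bub3, Ect2, Foxm1 and Kif11. Calls rose over all 10145 genes tested too, to 3899 lower and 3187 higher with the block, against 3650 and 2984 without it. With all 4 groups in one fit, limma called 0 of the 36 (6 at an unadjusted p under 0.05). Over all 10145 genes tested, that fit still called 2702 lower and 2265 higher, with 5501 at an unadjusted p under 0.05. Macrophage replicate 2 carried acinar markers at 2.03% of signal, against 0.137 and 0.00664% in the other 2, and without it 18 genes were called lower and 0 higher. Endothelial replicate 2 carried them at 0.582%, against 0.0276 and 0.00135% in the other 2, and without it 13 were called lower and 0 higher. Endothelial replicate 3 carried mural and fibroblast markers at 0.297%, against 0.0827 and 0.0770%, and without it 14 were called lower and 0 higher. Over all 10145 genes tested, 3461 were called lower without macrophage replicate 2. Without endothelial replicate 2 and without endothelial replicate 3 these counts were 3101 and 3346.

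**Figure D4:**
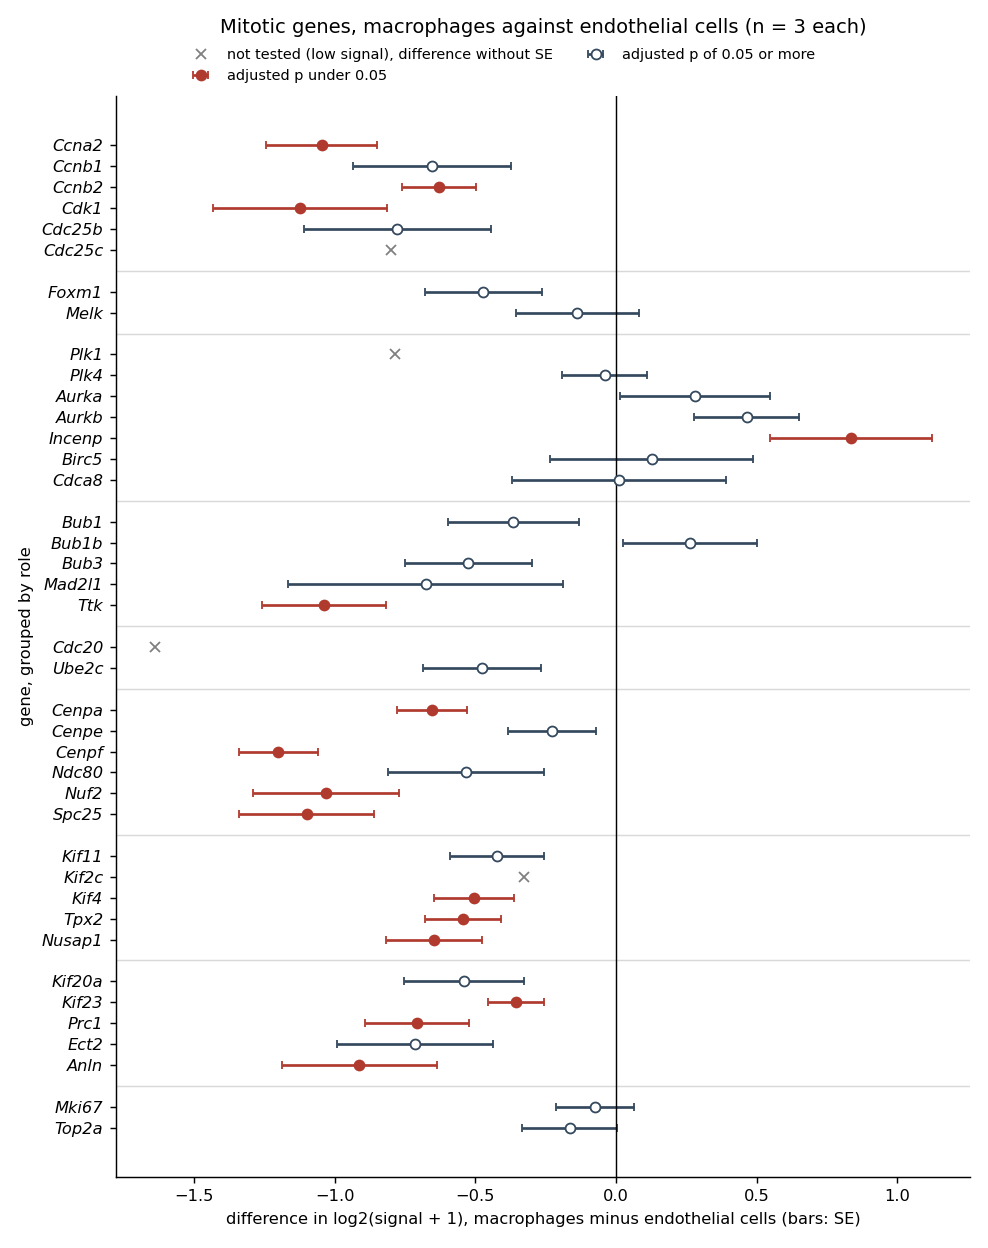
Difference in log2(signal + 1), macrophages minus endothelial cells, for the 40 genes grouped by role, with the standard error of the limma fit (3 libraries per group). Filled points are called genes and crosses untested ones; most points lie left of zero, down to -1.20 for Cenpf among the genes tested, while Incenp at 0.83 is the one filled point on the right.

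Related genes were called in both directions between the fractions, where 36.0% of all genes tested were called lower and 29.4% higher. Of 48 other mitotic genes tested, 15 (31.2%) were called lower and 6 (12.5%) higher in macrophages, neither above the share of all genes, led by Ckap2 (-1.98 ± 0.20, adjusted p = 4.83e-05), a spindle protein measured at 202 ± 24.4 in macrophages and 804 ± 122 in endothelial cells. Of 11 tested anaphase-promoting complex subunits, 8 (72.7%) were called lower and 1 higher, among them Anapc4 (-1.10 ± 0.17, adjusted p = 0.000518). E2F factors were called in both directions: the repressor E2f7 averaged 393 ± 89.5 in macrophages and 1586 ± 96.9 in endothelial cells (-2.04 ± 0.19, adjusted p = 3.33e-05), whereas the activators E2f2 (2.01) and E2f1 (1.72) were higher in macrophages, E2f1 having reached the signal limit there alone. Of 26 tested DNA replication genes, 8 (30.8%) were called higher, near the share of all genes, and 5 (19.2%) lower in macrophages, including Gins1 (2.01), which reached the signal limit in macrophages alone, and thymidine kinase Tk1 (1.47), while thymidylate synthase Tyms was lower (-1.09).

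Set against whole Dox islets, few of the mitotic genes were called different in either fraction. These comparisons share the Dox islet libraries with each other and with the comparison of Dox and No Dox islets, so each is given for itself. In macrophages, 6 of 35 tested genes were called higher and 1 lower, where 24.7% of all genes tested were called higher and 31.3% lower. The 6 were Birc5 (1.52 ± 0.53, adjusted p = 0.0369), Incenp (1.51 ± 0.35, adjusted p = 0.0059), Bub1b (1.46 ± 0.39, adjusted p = 0.0111), Aurkb (1.26 ± 0.37, adjusted p = 0.0167), Aurka (1.10 ± 0.37, adjusted p = 0.0308) and Kif23 (0.75 ± 0.25, adjusted p = 0.0283), of which 4 belong to the Aurora kinase and passenger group. Aurka reached the signal limit in macrophages alone. Incenp averaged 1341 ± 484 in macrophages and 462 ± 146 in Dox islets, without overlap. The gene called lower was Spc25. Only Incenp and Spc25 were called under every alternative run. The count was 11 without Dox islets replicate 1, 3 without Dox islets replicate 3, 4 without macrophage replicate 1 and 3 without macrophage replicate 2. Over all 10687 genes tested these runs called 7144, 4994, 4913 and 5113, against 5983 with all libraries.

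In endothelial cells, 8 of 36 tested genes were called higher than in Dox islets and 1 lower, where 14.0% of all genes tested were called higher and 17.5% lower. These were Birc5 (1.39), Bub1b (1.19), Foxm1 (1.13 ± 0.31, adjusted p = 0.0252), Kif23 (1.10 ± 0.23, adjusted p = 0.0071), Ect2 (1.07), Cdc25b (0.97), Kif20a (0.92, at an adjusted p of 0.04996) and Cenpa (0.84 ± 0.17, adjusted p = 0.0071), with Spc25 again lower. Cdc25b reached the signal limit in endothelial cells alone. Kif23 averaged 2549 ± 93.8 in endothelial cells and 1221 ± 369 in Dox islets, and Foxm1 792 ± 131 in endothelial cells and 376 ± 139 in Dox islets. Without Dox islets replicate 2 the fit called 22 genes of the set, all higher in endothelial cells. Over all 10187 genes tested, 1233 were called higher in that run, against 1423 with all libraries. Without any 1 of the endothelial libraries or Dox islets replicate 3 it called 2 of the set, and 2105 to 2313 of all genes in either direction. Of 43 other mitotic genes tested, 12 (27.9%) were called higher and 0 lower, led by the citron kinase Cit (1.70). Of these 12, 1 reached the signal limit in endothelial cells alone. Of 19 tested E2F and MuvB regulators, 4 (21.1%) were called higher and 0 lower, with E2f7 higher by 1.97 on the log2 scale.

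Ranked by group means, 30 of the 40 genes were highest in endothelial cells, 6 in macrophages (Bub1b, Aurka, Aurkb, Incenp, Birc5 and Cdca8), 3 in Dox islets (Bub3, Mad2l1 and Cenpe) and 1 in No Dox islets (Spc25). For 38 of 40 No Dox islets had the lowest mean. The Dox islet mean was 65.0% of the endothelial mean and 88.2% of the macrophage mean at the median gene, although for 18 genes Dox islets replicate 2 exceeded all 6 sorted libraries. Per kilobase of exon, the levels in endothelial cells ranged from 1259 for Mki67, 799.7 for Top2a, 711 for Ccnb2, 659.6 for Ccna2 and 651 for Kif23 down to 61.4 for Cdca8 and 32.3 for Kif2c. In macrophages the order began with Mki67 at 1207, Top2a at 728 and Kif23 at 509.5, followed by Ccnb2 at 459 and Incenp at 415.

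Spc25 differed from the rest of the set in both its level and its direction. It encodes a subunit of the Ndc80 complex, the same complex as Nuf2 and Ndc80, yet it stood at 1516, 2928 and 2722 in Dox islets against 3819, 5283 and 15698 in No Dox islets (log2 difference -1.57 ± 0.52, adjusted p = 0.0947). The groups did not overlap, and the difference was not called. With all 4 groups in 1 fit Spc25 was called lower. It was also called lower with the replicate number as a block, but the numbers do not pair the islet libraries. It stood at 478, 840 and 478 in macrophages against 1381, 1084.5 and 1265 in endothelial cells (-1.10 ± 0.24, adjusted p = 0.00415). Against Dox islets it was lower in macrophages (-1.99 ± 0.33, adjusted p = 0.000835) and in endothelial cells (-0.89 ± 0.27, adjusted p = 0.0376). In build mm9, Spc25 lies on the minus strand of chromosome 2 from 69031952 to 69044251, and its start faces that of G6pc2 on the plus strand, with 4878 bases between them. G6pc2, a glucose-6-phosphatase of beta cells, stood at 7066, 14226 and 10759 in Dox islets against 34501, 53964 and 85112 in No Dox islets (-2.40 ± 0.44, adjusted p = 0.0157), at 38.4 to 96.3 in macrophages and at 17.1 to 20.8 in endothelial cells. Spc25 signal was 497 to 2187% of G6pc2 signal in macrophages, 6348 to 7356% in endothelial cells, 20.6 to 25.3% in Dox islets and 9.79 to 18.4% in No Dox islets. Whether reads of transcripts from the G6pc2 side were counted to Spc25 in islets was not tested.

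**Figure D5:**
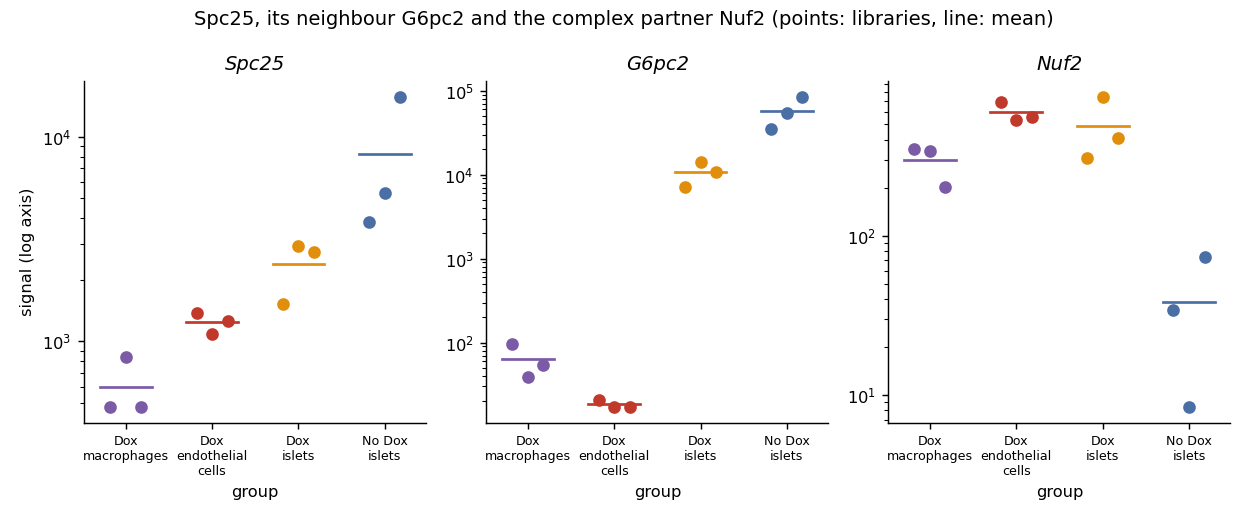
Signal (log axis) of Spc25, of its neighbour G6pc2 and of Nuf2, a partner of Spc25 in the Ndc80 complex, in macrophages, endothelial cells, Dox islets and No Dox islets. Points are libraries and lines means of 3; Spc25 and G6pc2 are highest in No Dox islets, where Nuf2 is lowest, at 8.41 to 72.9.

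Across the 12 libraries the remaining genes shared a profile. Of the 36 members that reached the signal limit in at least 3 libraries, 26 correlated at 0.9 or more with the mean standardised profile of the set, led by Kif11 (Pearson r 0.992) and Bub1 (0.989). The least alike were Spc25 (-0.68), Bub3 (0.53), Cdc25b (0.66) and Aurka (0.71). Outside the set, the genes of closest profile among the 11593 compared included Ncaph (0.988), Cdca2, Cep55, Vim, 4632434I11Rik, Bnip2, Aspm, D2Ertd750e and Casc5 (0.973), and 154 reached 0.9. Ncaph encodes a condensin subunit, Cdca2 and Aspm are mitotic genes, and Casc5 is a kinetochore scaffold, whereas Vim encodes vimentin, an intermediate filament of mesenchymal and endothelial cells and leukocytes. These correlations describe 12 libraries that fall into 4 groups, and each member is part of the mean it is set against.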

How the data were processed

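RNA of islets and of sorted islet cells was amplified and sequenced, per the labels' protocols. Reads were aligned with TopHat2 2.0 to mm9, per the submitters' processing notes. The authors deposited 1 table of normalized expression signal per gene and library, a linear value with a floor of 1; how it was normalized and whether strand was used is not stated there. Low values lie on library-specific steps, but whole reads could not be recovered, so depth is unknown and no count model was used.

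Of 22793 table entries, 22711 genes were kept after duplicated symbols were resolved and 25 symbols stored as dates restored. Each comparison used its 6 libraries in limma 3.58.1 (R 4.3.3) with a mean-variance trend on log2(signal + 1) and Benjamini-Hochberg adjustment over all genes tested. A gene was tested at a signal of at least 183 (the 40th percentile of values above the floor) in at least 3 libraries; the code was tested on simulated data. Genes were named by role within the set and, in the related lists, by the largest differences. The members and lists were chosen with earlier results of these data known. Same-numbered macrophage and endothelial libraries deviated together (correlations of 0.27, 0.51 and 0.45), which pairs them by the data, not by the labels. Exon lengths, GC and overlaps are from GENCODE M1 on mm9. Alternatives covered the pseudocount, filter, scaling, fit, replicate block and single libraries. One gene of similar profile is not reported here.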

Additional observations from a re-analysis of the deposited data

How the results depend on the processing

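No called member changed sign under any alternative run. In islets, 0 of the 19 called genes were called under every alternative. With no filter on low values the islet fit called 97 genes and 0 of the 40 members. With all 4 groups in 1 fit it called 1510 genes and 27 of 28 members tested, 26 higher and 1 lower. Without Dox replicate 1 and No Dox replicate 2 together it called 371 genes and 5 members. With 1 library left out it called 5 to 736 genes and 0 to 21 members. Higher genes were 73.3% of islet calls, 57.8% under quantile normalization and 62.2% under median ratio rescaling, and 15 and 17 members stayed called. Quantile normalization moved the median log2 difference of all genes to -0.02, against 0.11, in islets, to 0.06, against -0.12, in macrophages against Dox islets, and to 0.21, against 0.08, in endothelial cells against Dox islets. In macrophages against endothelial cells, 0 members were called with all 4 groups in 1 fit, where 4967 of all 10145 genes tested were called. Among uncalled genes there, Cdca8 was at -0.0028 and Plk4 at 0.00092 under quantile normalization, and Mki67 at 0.0022 and Plk4 at 0.037 under median ratio rescaling. With 1 library left out Birc5 ranged from -0.081 to 0.518, Cdca8 from -0.206 to 0.430, Mki67 from -0.226 to 0.033, Plk4 from -0.165 to 0.039 and Top2a from -0.328 to 0.027 on the log2 scale. Against Dox islets, macrophages gave 3 members and 6903 genes with no filter, and 3 to 11 members and 4913 to 7144 genes with 1 library left out. Endothelial cells gave 3 members and 3986 genes with no filter, 14 and 3774 under quantile normalization, and 0 and 2452 with all 4 groups in 1 fit. With 1 library left out they gave 2 to 22 members and 2105 to 6168 genes. Higher genes were 44.4% of calls, and 54.9% under quantile normalization. Without Mki67 and Top2a the share of signal was 0.115% in macrophages and 0.159% in endothelial cells. The cause of these shifts was not tested. With the replicate block the islet fit called 22 members, 16 of them shared with the fit without it, macrophages against Dox islets 9 and endothelial cells against Dox islets 9; same-numbered libraries correlated at -0.21, -0.66 and 0.19 in the islet comparison, so these numbers do not pair them. Depth is unknown, and 12 members were too low to test in islets.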
